A study of Homo sapiens with 5 samples.

Results

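The 44 protein-coding collagen genes, named COL followed by a type number, A and a chain number, were taken from 35453 gene names, and the transcript counts of each were summed. Of these, 36 reached 20 scaled counts in any of 5 libraries of KGN cells, an established line from a human granulosa cell tumour. COL2A1, COL6A5, COL9A1, COL11A1, COL20A1, COL22A1, COL23A1 and COL26A1 stayed under that minimum. COL2A1 was the highest of them at 7.0 scaled counts, and COL6A5 and COL22A1 were listed at 0 in all 5 libraries. Cells received FSH at 100 ng/mL, forskolin (FSK, which raises cyclic AMP and through it protein kinase A), SC79 at 4 µg/mL (an activator of the kinase AKT), the phorbol ester PMA (which switches on protein kinase C) or no activator for 24 h. The medium of all groups was charcoal-stripped and held 100 nmol/L androstenedione. The sample title calls the control untreated, whereas the protocol adds ethanol to it. The label of FSK gives 10 mmol/L and that of PMA 0.1 mmol/L, whereas the protocol has before both units a symbol-font code for the Greek letter mu, which would make them micromolar.

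Each group was 1 poly(A) library from 270 ng of RNA pooled from 3 cultures, 90 ng from each, so there was no replicate error and no test between groups was possible. Each ratio below compares 1 library with 1 other. The 95% interval beside a ratio covers counting error only, and no difference between cultures. No molecular identifiers are described, so reads need not be separate molecules. The counts are also estimates, so the interval may be too narrow even for counting error. Libraries held between 50253128 and 58849719 estimated counts. A scaled count is the estimated count divided by the relative effective size of its library, and a log2 ratio had 1 scaled count added to both sides, while folds, ratios and their intervals had nothing added. A gene was counted as higher or lower where its log2 ratio was at least 1 from 0, so a fold just past 2 on few reads may not be counted. Of 11 granulosa markers, 10 passed the minimum. FOXL2, a transcription factor of granulosa cells, ranged from 5458 scaled counts with PMA to 10392 with SC79, while WT1 did not exceed 1.06. With FSK 6 of the 10 were at least 2-fold higher and 0 lower, led by CYP19A1 at a log2 ratio of 4.93. With FSH 1 was higher, CYP19A1 at 1.51, and with SC79 none was past 2-fold. With PMA 1 was higher, INHBA at 1.11, and 2 were lower, AMHR2 at -2.56 and FSHR at -1.32. The shares over all genes are given with the collagen counts below.

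Collagens are secreted or membrane proteins whose chains wind into a triple helix. Fibrillar collagens such as types I, III and V form the banded fibrils of connective tissue, type IV forms the sheet of basement membranes, and the other classes coat fibrils, link layers or span the cell membrane. In the ovary, granulosa cells of a growing follicle rest on a basement membrane that contains type IV chains, while fibrillar collagen is mostly found in the theca and stroma. Chains of 1 molecule are encoded by separate genes, so their relative levels are of interest beside each level.

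Collagen RNA took a sizeable share of every library, and that share was lowest with PMA. All 44 genes together took 2.73% of counts with FSH, 2.39% with FSK, 2.77% with SC79 and 1.45% with PMA, against 2.81% in the control. COL1A1, the major chain of type I collagen, made up 48.5% of collagen counts with FSH, 39.4% with FSK, 52.2% with SC79 and 37.0% with PMA, against 50.6% in the control. It was the gene with the second highest count with FSH, with SC79 and in the control, and had rank 4 with FSK and with PMA. The summed scaled counts over the control were 0.962 with FSH, 0.861 with FSK, 0.968 with SC79 and 0.492 with PMA (0.491 to 0.493). Without COL1A1 they were 1.00 with FSH, 1.06 with FSK, 0.935 with SC79 and 0.627 with PMA. In these bulk libraries, fewer cells of a kind and less RNA per cell cannot be told apart. Per kilobase of transcript, the control library had 127271 scaled counts for COL1A1, 28762 for COL1A2, 23771 for COL3A1, 19882 for COL4A2 and 13194 for COL6A2, the 5 highest of the collagen genes.

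**Figure D1:**
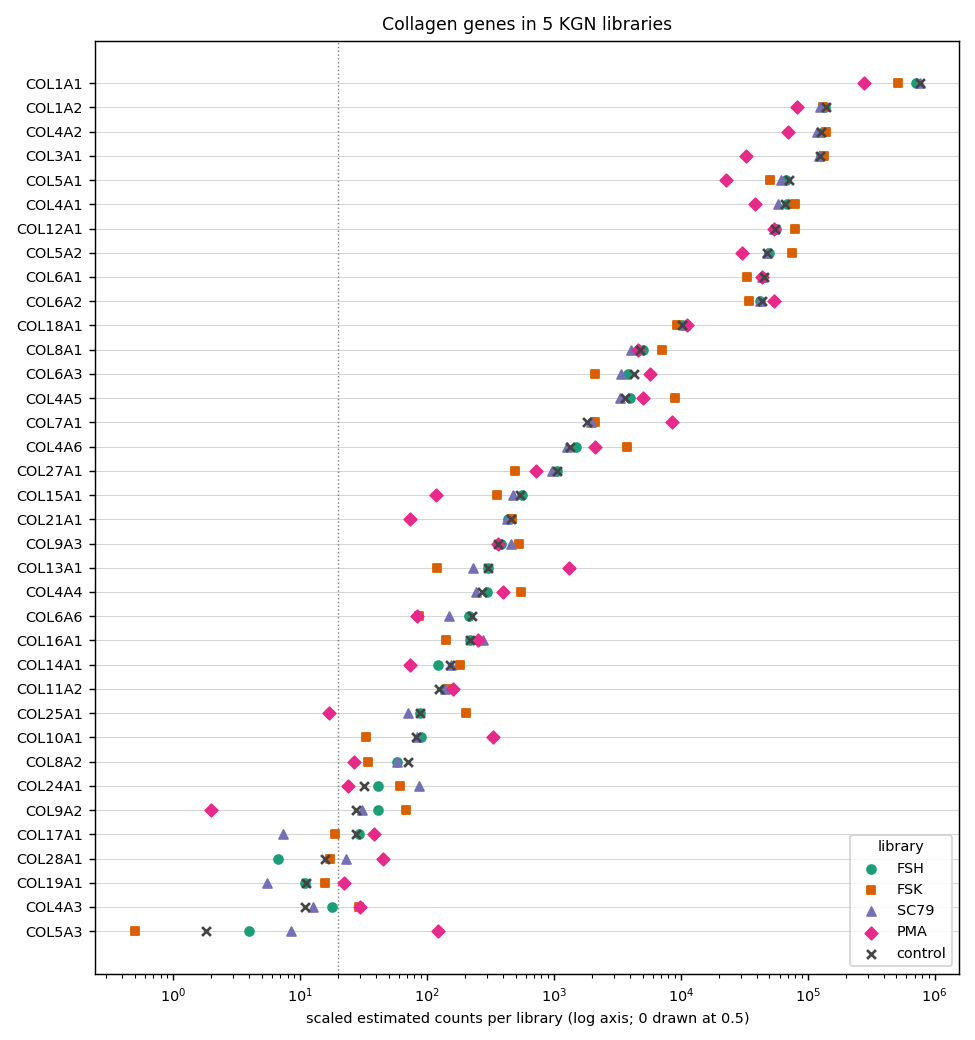
Scaled estimated counts (log axis) of the 36 collagen genes over the minimum, 1 point per library, ordered by the control count, with the minimum of 20 as a dotted line and 0 drawn at 0.5. FSH and SC79 points mostly lie on the control, PMA points lie left of it for COL1A1, COL3A1, COL5A1, COL15A1 and COL21A1, and COL7A1, COL13A1 and COL5A3 lie right of it.

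The 4 treatments differed in how many collagen genes lay past 2-fold. With FSH, none of 36 genes lay at least 2-fold higher and 1 was lower, where 1.11% of 15222 genes over the minimum were higher and 0.729% lower. With FSK, 6 of 35 were higher and 6 lower, where 5.23% of all genes over the minimum were higher and 6.15% lower. With SC79, 2 of 36 were higher and 1 lower, where 0.946% were higher and 0.618% lower. With PMA, 6 of 36 were higher and 10 lower, where 4.92% were higher and 4.82% lower. The median log2 ratio of the collagen genes was 0.02 with FSH, 0.12 with FSK, -0.08 with SC79 and -0.04 with PMA, beside medians over all genes of -0.01 with FSH, 0.01 with FSK, 0.00 with SC79 and 0.00 with PMA. With PMA, 6 of 36 collagen genes (16.7%) stayed within 1.2-fold of the control, while 50.5% of all genes over the minimum did. With FSK, that share was 28.6% of collagen genes and 48.7% of all genes over the minimum. Counting only genes whose higher library in a pair held 100 scaled counts or more, FSH and SC79 had no collagen gene past 2-fold. For all genes so counted, the shares were 0.305% higher and 0.104% lower with FSH, and 0.224% higher and 0.0401% lower with SC79. With FSK, 4 collagen genes were then higher and 4 lower, where 4.13% of all such genes were higher and 5.43% lower. With PMA, 4 were higher and 7 lower, where 3.64% were higher and 3.62% lower.

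**Figure D2:**
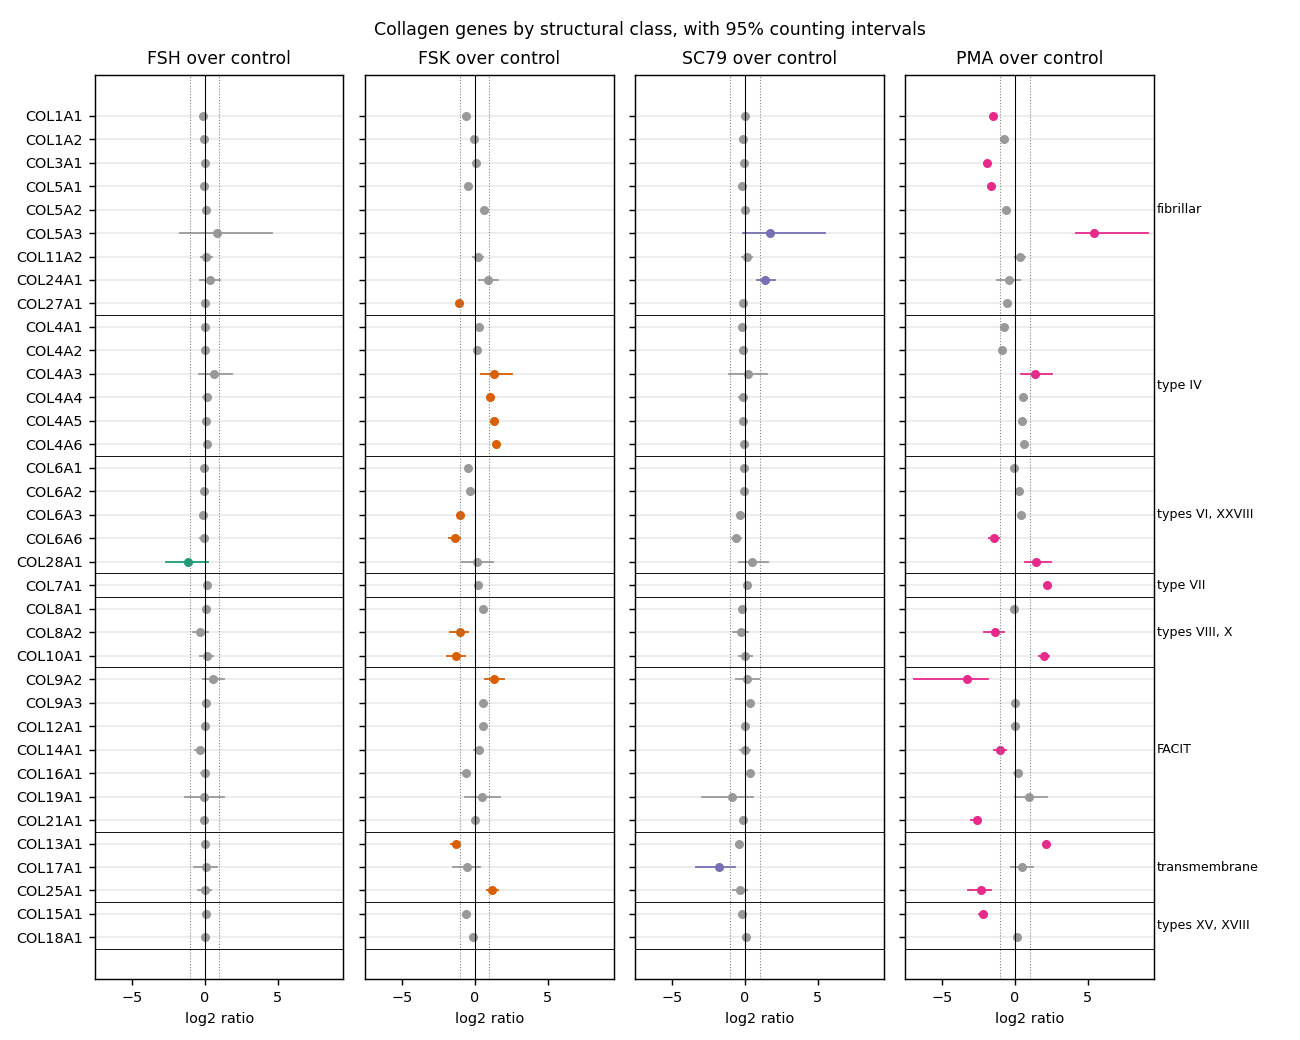
Log2 ratio of each treatment over the control for 36 collagen genes grouped by structural class, with lines for the 95% counting intervals and dotted lines at 2-fold. Points past 2-fold are coloured. PMA has points on both sides, from COL9A2 at -3.26 to COL5A3 at 5.45, while FSH and SC79 points gather near 0. COL5A3 has no FSK point because both libraries held 3 counts or fewer.

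Among fibrillar collagens, COL1A1, COL1A2, COL3A1, COL5A1 and COL5A2 were all lower with PMA than in the control, and COL1A1, COL3A1 and COL5A1 lay past 2-fold. COL1A1 (ENSG00000108821, GRCh38 chromosome 17, 50183289 to 50201632, minus strand) had 709251 scaled counts with FSH, 515311 with FSK, 768209 with SC79 and 276866 with PMA, against 768295 in the control. The PMA level was 0.360 of the control (95% counting interval 0.359 to 0.362), the FSK level was 0.671 of it (0.668 to 0.673), and the SC79 level was almost equal to it. COL1A2, the partner chain of type I, had 135658 scaled counts with FSH, 131655 with FSK, 125820 with SC79 and 83021 with PMA, against 138675 in the control. It was thus lower by a smaller factor than COL1A1 with both FSK and PMA.

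COL3A1 (ENSG00000168542, chromosome 2, 188974320 to 189012746, plus strand) encodes the single chain of type III collagen, a fibrillar collagen of soft tissues. It had 126430 scaled counts with FSH, 134706 with FSK, 122856 with SC79 and 32915 with PMA, against 125516 in the control. Only the PMA library stood apart, at 0.262 of the control (0.259 to 0.265). COL5A1, a type V chain that starts and thins fibrils, had 68086 scaled counts with FSH, 50464 with FSK, 61865 with SC79 and 22643 with PMA, against 70697 in the control. Its partner COL5A2 had 49756 with FSH, 74753 with FSK, 47706 with SC79 and 30476 with PMA, against 47460 in the control. With FSK the type V chains therefore lay on opposite sides of the control, COL5A1 at 0.714 and COL5A2 at 1.58 of it. With PMA both were lower, COL5A1 at 0.320 (0.316 to 0.325) and COL5A2 at 0.642 (0.633 to 0.651) of it. COL3A1 and COL5A2 are neighbours on chromosome 2, with 19149 bases between them, yet the FSK library was close to the control for COL3A1 (1.07-fold, and below it on the authors' scaling) and higher for COL5A2.

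COL5A3, the third type V chain, was nearly absent outside the PMA library. It had 4.00 scaled counts with FSH, 0 with FSK, 8.47 with SC79 and 122.7 with PMA, against 1.84 in the control. The PMA ratio of 66.8 has a 95% counting interval of 18.1 to 558, and the control value rests on very few reads. Taking 3 counts as the limit of the 0 in the FSK library, the PMA level was at least 39.1-fold higher than that limit, and the 95% counting interval of the ratio begins lower, at 31.3. With SC79 its ratio was 4.62, with an interval of 0.921 to 44.6 that includes 1.

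Among the low fibrillar genes, COL24A1 was highest with SC79, where it had 86.9 scaled counts. It had 41.0 with FSH, 61.7 with FSK and 23.8 with PMA, and the control had 32.1. The SC79 ratio was 2.70 (1.80 to 4.14). COL27A1, a cartilage fibril collagen, had 1053 scaled counts with FSH, 494 with FSK, 976 with SC79 and 727 with PMA, against 1057 in the control, so it was 0.468 of the control with FSK (0.420 to 0.522). COL11A2, a further fibrillar chain, stayed between 126 and 160 in all 5 libraries. Its counts are split over copies of the gene on alternative forms of the immune region of chromosome 6, and no level per length was computed for it.

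Because each type I molecule usually joins a pair of COL1A1 chains with a single COL1A2 chain, the chains were also compared as counts per kilobase of transcript. COL1A1 over COL1A2 was 4.11 with FSH, 3.08 with FSK, 4.91 with SC79 and 2.64 with PMA, against 4.42 in the control. COL5A1 over COL5A2 was 1.22 with FSH, 0.639 with FSK, 1.19 with SC79 and 0.684 with PMA, against 1.36 in the control. The FSK and PMA libraries thus had the lowest ratios for both pairs. These are ratios of RNA and not of protein chains.

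**Figure D3:**
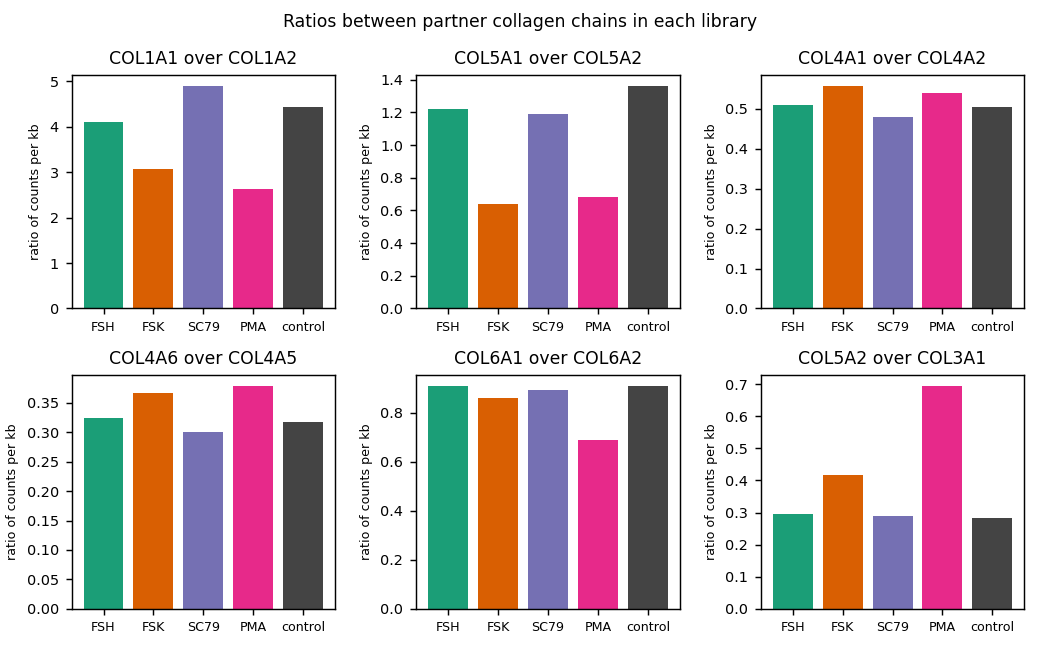
Ratio of counts per kilobase between partner or neighbouring collagen chains in each library, with bars starting at 0. COL1A1 over COL1A2 and COL5A1 over COL5A2 are lowest with FSK and PMA, COL5A2 over COL3A1 reaches 0.695 with PMA against 0.284 in the control, and COL4A1 over COL4A2 stays between 0.479 and 0.558.

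Markers of other cell types were read beside these values. Of 8 stromal fibroblast markers 7 passed the minimum, and their summed level was 20696 scaled counts with FSH, 16582 with FSK, 22539 with SC79 and 33562 with PMA, against 20316 in the control. Most of it was PDGFRA, and TCF21 was at 0 in all 5 libraries. With PMA 1 was at least 2-fold higher and 1 lower, since FAP had 765 against 12.9 in the control and THY1 had 25.7 against 110. With FSK 2 were lower, LUM at a log2 ratio of -1.38 and THY1 at -1.01.

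Of 6 smooth muscle and pericyte markers 5 passed, with a summed level of 23209 with FSH, 9093 with FSK, 20978 with SC79 and 10583 with PMA, against 25777 in the control. ACTA2 alone lay past 2-fold, with 5542 with FSK and 4444 with PMA, against 21784 in the control. With PMA the log2 ratios of RGS5 (0.78), PDGFRB (0.61) and NOTCH3 (0.39) were above 0 and that of MYH11 was -0.56, for a median of 0.39, and DES did not exceed 6.28 scaled counts. Of 5 endothelial markers, PECAM1 and VWF passed and both were higher with PMA, at log2 ratios of 2.57 and 1.26, VWF was lower with FSK (-1.40), and CDH5 and CLDN5 stayed under 2 scaled counts in every library. Of 5 epithelial markers, KRT19 was lower with PMA (log2 ratio -2.11) and CDH1 higher (1.32), and KRT7 was at -0.04. With FSK, KRT19 (-1.89) and EPCAM (-1.56) were lower. Of 5 theca markers, CYP17A1, INSL3 and LHCGR did not exceed 13.6 scaled counts. Of the 2 that passed, GLI1 was lower with FSK (-1.15) and with PMA (-2.41), and PTCH1 was at -0.14 with FSK and 0.44 with PMA. Of 5 immune markers 2 passed the minimum. CD68 had 2178 scaled counts with PMA against 791 in the control, while PTPRC had 37.6 against 37.7. Under the minimum, CD14 had 9.90 with PMA against 11.9, and CD3E was at 0 in all 5 libraries. The part of these cell types in the collagen values was not tested.

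Type IV collagen, the network of basement membranes, was split between its gene pairs. Its 6 genes lie as 3 pairs with their starts facing away from each other, COL4A1 with COL4A2 on chromosome 13, COL4A3 with COL4A4 on chromosome 2 and COL4A5 with COL4A6 on chromosome X. RefSeq puts 127 bases between the starts of the first pair, 419 between those of the second, and 380 between COL4A5 and the nearer start of COL4A6. With FSK, 4 of the 6 were at least 2-fold higher and the class median was a log2 ratio of 1.16, while 5.23% of all genes over the minimum were that much higher.

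COL4A5 (ENSG00000188153, chromosome X, 108439844 to 108697545, plus strand) had 3961 scaled counts with FSH, 9035 with FSK, 3340 with SC79 and 5071 with PMA, against 3664 in the control. COL4A6 (ENSG00000197565, chromosome X, 108155607 to 108439497, minus strand) had 1496 with FSH, 3772 with FSK, 1265 with SC79 and 2112 with PMA, against 1350 in the control. The FSK library was the highest for both, by 2.47-fold for COL4A5 (2.37 to 2.56) and 2.79-fold for COL4A6 (2.63 to 2.97), and PMA came next with 1.38-fold and 1.56-fold. Against FSH directly, the FSK level was 2.28-fold higher for COL4A5 and 2.52-fold for COL4A6. Counts of COL4A6 per kilobase were 0.324 of those of COL4A5 with FSH, 0.366 with FSK, 0.301 with SC79 and 0.379 with PMA, against 0.317 in the control, a narrower spread than that of either level.

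COL4A4 had 297 scaled counts with FSH, 548 with FSK, 246 with SC79 and 399.9 with PMA, against 272 in the control. Its FSK ratio of 2.02 (1.75 to 2.33) lay at the 2-fold limit, and it was under 2-fold in 5 other settings of the processing. Its partner COL4A3 had 18.0 with FSH, 29.3 with FSK, 12.7 with SC79 and 29.7 with PMA, against 11.0 in the control. The chains of both belong, with that of COL4A5, to the network of the kidney filter. COL4A3 was 2.66-fold higher with FSK (1.31 to 5.74) and 2.70-fold higher with PMA (1.34 to 5.78), on few reads.

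The main chains of most basement membranes did not follow. COL4A1 had 68339 scaled counts with FSH, 79466 with FSK, 58093 with SC79 and 38727 with PMA, against 66373 in the control. COL4A2 had 131210 with FSH, 138806 with FSK, 118141 with SC79 and 70021 with PMA, against 128061 in the control. With FSK they were 1.197-fold and 1.08-fold the control, and with PMA 0.583 and 0.547 of it. On the authors' own scaling, both lay past 2-fold below the control with PMA. PMA thus had lower COL4A1 and COL4A2 beside higher values of the other 4 type IV genes, and the ratio per kilobase of COL4A1 to COL4A2 stayed between 0.479 and 0.558 in the 5 libraries.

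Since the members of each pair lay on the same side of the control with FSK and with PMA, except COL4A2 with FSK on the authors' scaling, the sequences before the starts of the pairs with most counts are shown as RefSeq gives them on GRCh38.p14. Capitals mark matches on either strand to 6 motifs, which are the AP-1 or TPA response element TGANTCA, the cyclic AMP response element TGACGTCA, its core TGACG, the CCAAT box CCAAT, the GC box GGGCGG and the TATA box TATAAA. The core is also part of the full element. The first stretch holds all 126 bases between the starts of COL4A1 and COL4A2 (chr13:110307158-110307283, plus strand), so that the same letters lie before both genes. The second is the 250 bases before the start of COL4A5 (chrX:108439588-108439837, plus strand), and the third the 250 bases before the start of COL4A6 used by its main transcript (chrX:108438423-108438672, minus strand).
COL4A1 and COL4A2: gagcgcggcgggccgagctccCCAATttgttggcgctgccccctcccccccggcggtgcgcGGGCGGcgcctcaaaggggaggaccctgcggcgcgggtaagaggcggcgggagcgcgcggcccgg
COL4A5: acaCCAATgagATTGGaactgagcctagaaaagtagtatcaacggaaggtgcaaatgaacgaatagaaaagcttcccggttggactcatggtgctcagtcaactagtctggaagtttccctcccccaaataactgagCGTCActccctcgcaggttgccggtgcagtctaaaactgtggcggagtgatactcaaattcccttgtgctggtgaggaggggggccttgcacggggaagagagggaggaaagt
COL4A6: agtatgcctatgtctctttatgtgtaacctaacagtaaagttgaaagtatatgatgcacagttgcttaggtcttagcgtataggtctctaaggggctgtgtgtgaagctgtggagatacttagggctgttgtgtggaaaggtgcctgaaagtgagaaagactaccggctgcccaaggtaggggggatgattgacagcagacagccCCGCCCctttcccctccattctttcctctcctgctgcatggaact
The stretch shared by COL4A1 and COL4A2 holds 1 CCAAT box and 1 GC box. That of COL4A5 holds a cyclic AMP core 113 bases before the start and 2 CCAAT matches near its far end, and that of COL4A6 holds 1 GC box. Among 35116 promoter windows of 300 bases, 24.6% hold a cyclic AMP core, 34.6% a CCAAT box, 44.95% a GC box and 11.5% a TATA box. The 44 collagen windows cover 32 of the 44 genes. Of these windows, 9 hold that core, 14 a CCAAT box, 24 a GC box and 8 a TATA box. None holds the full cyclic AMP element, which 1.85% of all windows hold. A match describes letters only.

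COL4A6 counts came mainly from the start farther from COL4A5. Its transcript COL4A6-201 held 92.2% of the gene with FSH, 89.7% with FSK, 91.3% with SC79 and 96.2% with PMA, against 91.1% in the control. For COL4A5 the estimate divided the gene between COL4A5-202 and COL4A5-201. COL4A5-202 held 67.2% with FSH, 79.4% with FSK, 67.0% with SC79 and 87.7% with PMA, against 62.3% in the control. The FSK and PMA libraries had the highest shares of it.

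COL7A1 encodes the anchoring fibril collagen, which ties basement membranes to the tissue below. The gene (ENSG00000114270, chromosome 3, 48564073 to 48595267, minus strand) had 1994 scaled counts with FSH, 2106 with FSK, 1978 with SC79 and 8505 with PMA, against 1833 in the control. Only the PMA library was high, at 4.64-fold the control (4.42 to 4.87) and 4.04-fold the FSK library. COL13A1, a collagen that spans the cell membrane, had 302 with FSH, 121 with FSK, 230 with SC79 and 1307 with PMA, against 301 in the control. It lay in opposite directions in these libraries, 4.34-fold higher with PMA (3.84 to 4.91) and 0.403 of the control with FSK (0.323 to 0.499), so that PMA was 10.8-fold above FSK. COL10A1, the short-chain collagen of growth plate cartilage, showed the same order. It had 90.0 with FSH, 33.5 with FSK, 83.7 with SC79 and 333.5 with PMA, against 82.6 in the control, and PMA was 4.04-fold above the control (3.19 to 5.15) and 9.96-fold above FSK (6.92 to 14.8).

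The TPA response element takes its name from the phorbol ester also called PMA. The bases before COL7A1 (chr3:48595330-48595579, minus strand) and COL13A1 (chr10:69801656-69801905, plus strand) are shown with the same capitals. These genes had the highest PMA ratios among collagen genes with over 1000 scaled counts in the PMA library. COL13A1 passed that limit in the PMA library alone, and COL5A3 (66.8-fold) and COL10A1 (4.04-fold) lay under it. Because the genes were picked by their PMA values, the matches in them are no test of the element.
COL7A1: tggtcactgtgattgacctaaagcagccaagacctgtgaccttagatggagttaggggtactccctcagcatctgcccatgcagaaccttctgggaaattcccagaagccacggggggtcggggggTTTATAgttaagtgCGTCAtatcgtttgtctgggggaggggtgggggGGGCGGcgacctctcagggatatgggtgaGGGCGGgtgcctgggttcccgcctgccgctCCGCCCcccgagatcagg
COL13A1: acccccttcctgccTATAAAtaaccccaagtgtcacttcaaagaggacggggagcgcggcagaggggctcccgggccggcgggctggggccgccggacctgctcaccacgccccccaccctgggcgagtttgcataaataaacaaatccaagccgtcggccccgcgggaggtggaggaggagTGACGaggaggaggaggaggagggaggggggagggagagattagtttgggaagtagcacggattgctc
Neither stretch holds TGANTCA, which 7.71% of all windows hold. Each holds a cyclic AMP core, 110 bases before the start of COL7A1 and 68 before that of COL13A1. Of the 44 collagen windows, 1 holds TGANTCA, and it lies before a start of COL10A1 that is 32639 bases from that of its main transcript. Letters outside these windows were not searched.

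Several minor collagens had their lowest level with PMA. COL21A1, which coats fibrils as a member of the FACIT group, had 434 scaled counts with FSH, 471 with FSK, 428 with SC79 and 73.2 with PMA, against 459 in the control, a PMA ratio of 0.160 (0.123 to 0.204). The share of COL21A1 left with PMA was the smallest among collagen genes with over 100 scaled counts in the control. COL15A1, a multiplexin of the basement membrane zone, had 562 with FSH, 358 with FSK, 480 with SC79 and 118 with PMA, against 540 in the control, a PMA ratio of 0.219 (0.179 to 0.268). For both, the other 3 treated libraries stayed within 2-fold of the control. COL25A1, a transmembrane collagen found in brain, had 88.0 with FSH, 203 with FSK, 71.0 with SC79 and 16.8 with PMA, against 89.1 in the control. It was 2.28-fold higher with FSK (1.78 to 2.94) and 0.189 of the control with PMA (0.106 to 0.318). COL9A2, a cartilage FACIT chain, had 41.0 with FSH, 69.0 with FSK, 30.7 with SC79 and 1.98 with PMA, against 27.5 in the control, on the same 2 sides with fewer reads. COL14A1, a FACIT collagen of tendon and skin, had 122 with FSH, 183 with FSK, 155 with SC79 and 74.3 with PMA, against 152 in the control. Its PMA ratio of 0.487 (0.366 to 0.643) lay just past 2-fold, and it was within 2-fold in 2 other settings.

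Type VI collagen, which forms beaded filaments around cells, had its own order. COL6A1 had 44734 scaled counts with FSH, 33107 with FSK, 43485 with SC79 and 43583 with PMA, against 45606 in the control. COL6A2 had 41758 with FSH, 34652 with FSK, 42034 with SC79 and 53910 with PMA, against 43880 in the control. COL6A3, the long chain, had 3842 with FSH, 2109 with FSK, 3376 with SC79 and 5718 with PMA, against 4262 in the control. All 3 were lowest with FSK, and COL6A3 at 0.495 of the control (0.469 to 0.521) lay past 2-fold. The PMA library was close to the control for COL6A1, at 0.956 of it, and above it for COL6A2 and COL6A3, at 1.23-fold and 1.34-fold. For COL6A3 the PMA level was 2.71-fold above FSK. COL6A6 had 214 with FSH, 86.8 with FSK, 150 with SC79 and 84.1 with PMA, against 227 in the control, and lay past 2-fold below it with FSK and with PMA. COL28A1, a related beaded filament collagen, had 6.76 with FSH, 17.4 with FSK, 23.0 with SC79 and 45.1 with PMA, against 15.9 in the control. Its PMA ratio was 2.84 (1.64 to 5.43), and its FSH ratio of 0.426 has an interval that includes 1 (0.157 to 1.14).

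The remaining members varied less or rested on few reads. COL12A1, a FACIT collagen of tendon and ligament, had 56452 scaled counts with FSH, 78858 with FSK, 53909 with SC79 and 54248 with PMA, against 54843 in the control, so FSK stood alone at 1.44-fold. COL8A1, a short-chain network collagen of vessel walls, had 5036 with FSH, 7065 with FSK, 4079 with SC79 and 4576 with PMA, against 4768 in the control, so it was likewise highest with FSK, at 1.48-fold. COL18A1, whose end fragment is endostatin, stayed between 9424 and 11153, and 85.2% of its 31-base words occur in no other gene. It overlaps SLC19A1 on the other strand. COL8A2, the partner of COL8A1, had 58.0 with FSH, 34.5 with FSK, 58.3 with SC79 and 26.7 with PMA, against 71.6 in the control. It lay past 2-fold below the control with FSK (0.311 to 0.733) and with PMA (0.232 to 0.585). Its log2 ratio with FSK was -0.96, within 2-fold, when 5 rather than 1 was added to both sides. COL17A1, a transmembrane collagen of epithelia, had 28.99 with FSH, 18.8 with FSK, 7.42 with SC79 and 38.6 with PMA, against 27.5 in the control. It was lowest with SC79, at 0.269 of the control (0.0998 to 0.626), on few reads. COL16A1 and COL9A3, both FACIT collagens, stayed within 2-fold of the control with every treatment. COL19A1, a further FACIT collagen, lay at the limit, with 0.488 of the control with SC79 (0.133 to 1.47) and 1.999-fold with PMA (0.987 to 4.56). It was not counted with either, since its log2 ratios were -0.92 and 0.94, and it passed the limit with SC79 on the authors' scaling and reached it with PMA on total counts. COL16A1 lay between 141 and 276 scaled counts, COL19A1 between 5.47 and 22.4, and COL9A3 between 365 and 537. The sign of the COL9A3 ratio with FSK turned, to a log2 of -0.22, when its protein-coding transcripts alone were summed, and that with PMA was then -0.99. Most COL9A3 counts, between 80.4% and 83.4%, were assigned to the short noncoding transcript COL9A3-207, and the gene overlaps TCFL5 on the other strand. Strand use of the libraries is not stated, and 17 of the 36 genes overlap an annotated gene on the opposite strand.

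With FSH and SC79 few collagen genes lay past 2-fold. The share of collagen genes that stayed near the control was close to that of all genes with FSH, and smaller than it with SC79. With FSH, 29 of 36 genes (80.6%) lay within 1.2-fold of it, where 84.9% of all genes over the minimum did, and COL28A1 was the only member past 2-fold. With SC79, 24 of 36 (66.7%) lay within 1.2-fold, where 82.1% of all genes over the minimum did, and COL5A3, COL24A1 and COL17A1 were past 2-fold. All 4 of these genes had under 100 scaled counts in both libraries compared.

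Direct comparisons set the activators against each other. PMA against FSK had 6 of 36 collagen genes at least 2-fold higher and 10 lower, where 6.93% of all genes over the minimum were higher and 6.21% lower. FSK against FSH had 4 higher and 5 lower, where 4.29% were higher and 5.33% lower. SC79 against FSH had 2 higher and 1 lower, where 0.906% were higher and 1.11% lower. The order COL13A1 then COL10A1 led the genes higher with PMA than with FSK, apart from COL5A3. Among genes lower with PMA than with FSK, the lowest were COL9A2 at 0.0287 of the FSK level, COL25A1 at 0.0829 and COL21A1 at 0.156. The first of them had only 1.98 scaled counts with PMA. With far more reads, COL3A1 was 0.244 of the FSK level (0.241 to 0.247) and COL5A2 0.408 (0.402 to 0.413). FSK exceeded FSH for COL4A5, COL4A6, COL25A1 and COL28A1, and was under it for COL6A6, COL10A1, COL13A1 and COL27A1. The fifth lower gene, COL5A3, had 0 scaled counts with FSK and 4.00 with FSH, too few to tell apart. Under the limit of 100 scaled counts, PMA against FSK had 5 higher and 8 lower, where 5.8% of all genes were higher and 5.13% lower. FSK against FSH then had 3 higher and 3 lower, where 3.31% were higher and 4.52% lower, and SC79 against FSH had none either way, where 0.192% were higher and 0.328% lower. The 3 comparisons share libraries with those against the control.

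The authors also deposited a comparison of each transcript with the control, and most of its calls concerned transcripts with almost no counts in 1 of the libraries. In the authors' deposited table, 47 collagen transcript comparisons over the 4 treatments had an adjusted p under 0.05, in 17 genes. Of its 381 collagen transcripts, the authors' deposited table had 4 higher and 6 lower with FSH, where 1.8% of all transcripts were called in either direction, and 9 higher and 8 lower with FSK, where 2.2% of all were called. With SC79, the authors' deposited table had 5 higher and 4 lower, where 1.84% of all were called, and with PMA 7 higher and 4 lower, where 2.17% were called. With LH, a treatment whose library was not analysed here, 8 were higher and 8 lower in the authors' deposited table, where 2.74% were called. In 45 of the 47 comparisons the transcript had under 1 scaled count in 1 of the 2 libraries compared, and in 27 the summed gene lay within 1.5-fold of the control. In 11 the summed gene was at least 2-fold from the control in the same direction, among them COL5A3-201 with PMA at a log2 fold change of 5.91 and an adjusted p of 0.005985 in the authors' deposited table. The edgeR design behind these adjusted p-values is not stated, and with 1 library per group they cannot rest on replicate error. COL1A1-201 with PMA, with 759147 scaled control counts, had a log2 fold change of -1.54 and no call in the authors' deposited table. COL3A1-201 with PMA had -1.995 and an adjusted p of 0.671 there, and COL7A1-201 with PMA had 2.30 and an adjusted p of 0.489, both in the authors' deposited table.

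COL8A2 shows how the division between transcripts differed between libraries. COL8A2-202 held 99.7% of the gene with FSH, 0% with FSK, 100% with SC79 and 74.1% with PMA, against 99.7% in the control. The rest went to COL8A2-201, which held all counts with FSK. COL14A1-202 likewise held 0.00114% with FSH, 47.1% with FSK, 43.5% with SC79 and 0.000311% with PMA, against 49.5% in the control. Sums per gene do not depend on that division. Levels per kilobase and the ratios between chains do, since the counts of each transcript were divided by its own length.

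**Figure D4:**
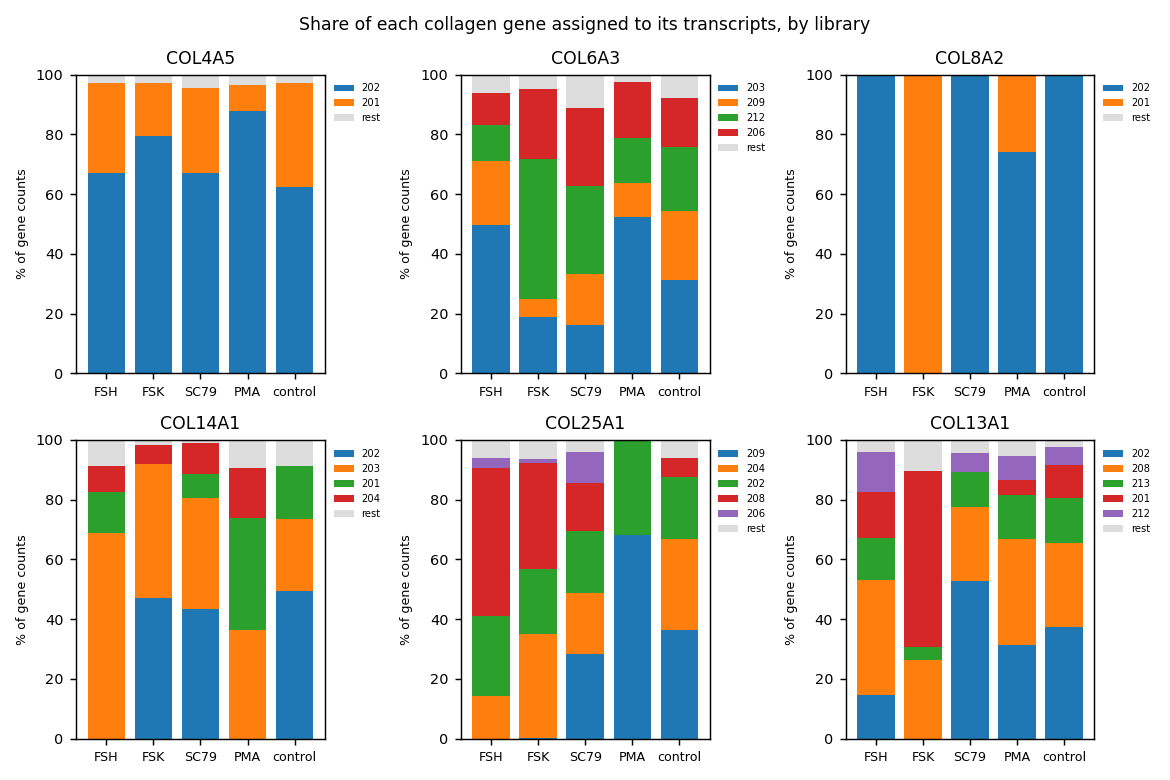
Share of counts that each of 6 collagen genes had on its transcripts, 1 bar per library, for the leading transcripts of each gene, with the rest in grey. COL8A2 is wholly COL8A2-201 with FSK and almost wholly COL8A2-202 in the control, and COL14A1-202 is present with FSK, SC79 and in the control but nearly 0 with FSH and PMA.

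Genes that make, export, cross-link, cleave or bind collagen were counted as a list of 73, of which 67 passed the minimum. With FSH 3 were at least 2-fold higher and 0 lower, with FSK 8 and 5, with SC79 2 and 0, and with PMA 7 and 5. The median log2 ratio was 0.00 with FSH, 0.16 with FSK, 0.01 with SC79 and -0.11 with PMA, beside the medians of all genes given above. Of all genes over the minimum, 1.11% were higher and 0.729% lower with FSH, and 5.23% and 6.15% with FSK. With SC79 these shares were 0.946% and 0.618%, and with PMA 4.92% and 4.82%. The same shares stand beside the counts of each group below.

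Of 16 genes for prolyl and lysyl modification, 2 were higher with FSK and 1 with PMA. PLOD2, a lysyl hydroxylase that prepares telopeptides for cross-links, had 14859 scaled counts with FSH, 59132 with FSK, 9942 with SC79 and 24696 with PMA, against 10094 in the control. Its log2 ratio of 2.55 with FSK was the highest of the group, and P4HA3, a prolyl hydroxylase subunit, followed at 1.88 and was also higher with FSH at 1.12. The median of these genes was 0.37 with FSK and -0.35 with PMA, where CRTAP and P3H3, partners in prolyl 3-hydroxylation, had -0.81 and -0.97. Of 11 chaperone, export and mRNA binding genes, 1 was lower with FSK and the same 1 with PMA, namely CREB3L1, a transcription factor known to act on type I collagen genes in bone. It had 10790 scaled counts with FSH, 5813 with FSK, 11764 with SC79 and 6017 with PMA, against 12464 in the control.

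Of 5 lysyl oxidases, which cross-link collagen, 2 were lower with FSK and 2 with PMA, while 1 was higher with PMA. LOXL4 had 1243 scaled counts with FSH, 345 with FSK, 1370 with SC79 and 4633 with PMA, against 1421 in the control. It lay below the control with FSK and above it with PMA, the order also seen for COL13A1 and COL10A1. LOXL1 was lower with both, at log2 ratios of -1.16 with FSK and -1.30 with PMA, and LOXL2 was lower with PMA at -1.24. Of 7 propeptide processing genes, TLL1, a procollagen C-proteinase, had a log2 ratio of 1.86 with FSK, and ADAMTS14, an N-proteinase, 2.14 with PMA.

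Of 12 fibril partners, 2 were higher and 2 lower with FSK, and 2 were lower with PMA. SPARC, a collagen-binding glycoprotein, had 275885 scaled counts with FSH, 248118 with FSK, 258719 with SC79 and 88390 with PMA, against 283695 in the control. Like COL3A1 it stood apart with PMA alone. The others past 2-fold, apart from NID2, had under 100 scaled counts. NID2, which links laminin to the type IV network, had a log2 ratio of 1.04 with FSK. Of 10 receptors, ITGA1, an integrin chain that binds type IV collagen, had 1.48 with FSK, and ITGA2, which binds fibrillar collagen, 1.34 with PMA.

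Of 6 collagen-cleaving enzymes, 3 were at least 2-fold higher with PMA. MMP1, the interstitial collagenase, had 38.0 scaled counts with FSH, 35.6 with FSK, 35.0 with SC79 and 10315 with PMA, against 16.5 in the control. MMP9, a gelatinase, had 5.00 with FSH, 13.6 with FSK, 10.6 with SC79 and 5124 with PMA, against 3.67 in the control. MMP14, a membrane-bound enzyme that cleaves fibrillar collagen, had 16374 with FSH, 14708 with FSK, 16362 with SC79 and 58860 with PMA, against 15556 in the control. All 3 were highest with PMA by a wide margin. MMP1 and MMP9 rested on few reads elsewhere, where they also lay above the control. MMP2, a further gelatinase, stayed between 134893 and 171723.

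**Figure D5:**
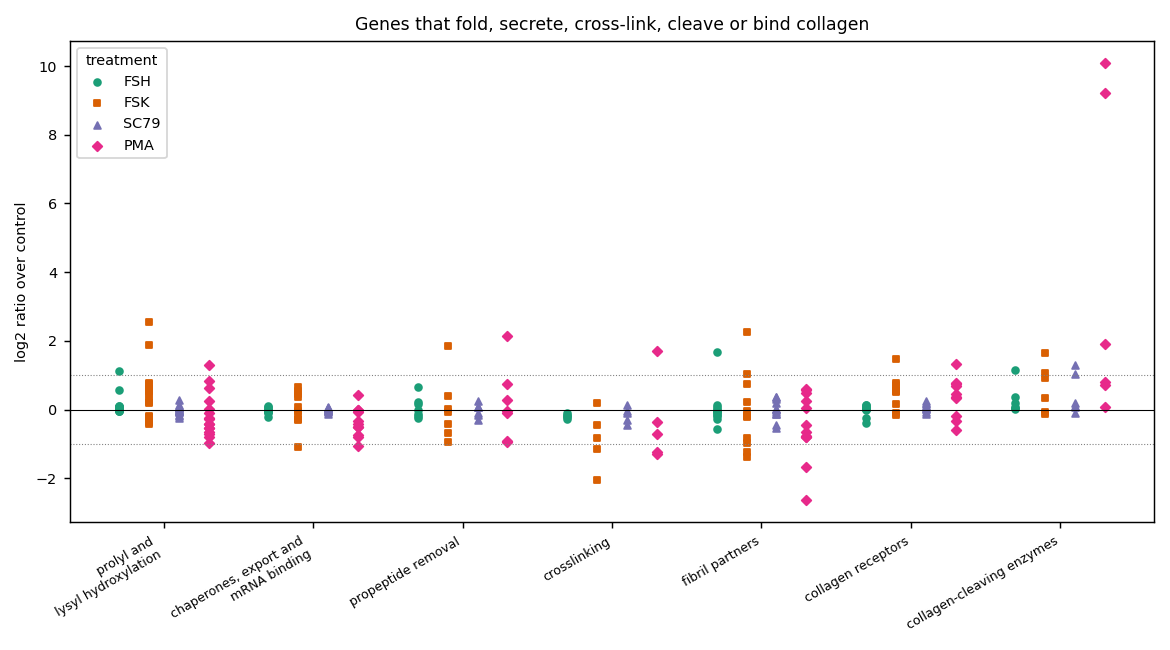
Log2 ratios over the control of the 67 genes that make, export, process, cross-link, cleave or bind collagen, 1 point per gene and treatment in 7 groups, with dotted lines at 2-fold. MMP1 and MMP9 with PMA stand above 9, PLOD2 with FSK at 2.55 is the highest of the hydroxylation group, and LOXL4 lies at 1.70 with PMA and -2.04 with FSK.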

How the data were processed

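The authors deposited estimated counts per transcript, the same table normalized (a signal equal to the estimated count times 1 constant per library), and a table of log2 fold changes, p-values and adjusted p-values per transcript. Per the submitters' processing notes, Trimmomatic, kallisto and edgeR were used, with no versions. For the transcript index, build and edgeR design, nothing is stated in the sources used here. The 179973 transcripts were summed by gene name, and 303 without a name, at most 0.0680% of a library, were left out. Sums were scaled with TMM factors (edgeR 4.0.16, R 4.3.3). Folds, and log2 ratios with 1 added to each scaled count, were computed in Python 3.11.15 with scipy, the folds with exact conditional binomial (Clopper-Pearson) 95% intervals on rounded counts, checked on simulated data. Genes with 3 or fewer counts in both libraries got no ratio. Collagen genes and lists were chosen with earlier results of these data known. All members over 20 scaled counts may be named, with the 2 highest and 2 lowest per list and treatment among list genes over 100. Coordinates are from GENCODE release 29 (GRCh38), transcript lengths likewise, and promoter sequences from RefSeq. With 1 library per group no p-value was computed. The 5 libraries were each assigned to a group by their labels, and all alternatives are in the closing section.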

Additional observations from a re-analysis of the deposited data

Results flagged for a closer look

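The authors' deposited table also compares cells given LH with the control, a treatment with no library in the comparisons above, and these values were singled out because they come from data outside those comparisons. In the authors' deposited table, the log2 fold change with LH was -4.23 for COL10A1-201 (adjusted p 0.0438), -11.36 for COL6A3-201 (adjusted p 4.50e-05) and -13.44 for COL6A3-203 (adjusted p 1.76e-06). It was -7.58 for COL4A6-208 (adjusted p 0.0169) and -9.03 for COL21A1-206 (adjusted p 0.00162) in the same deposited table. These are the called LH transcripts with a name and at least 20 scaled counts in the control. How the authors' adjusted p-values were obtained for LH is not stated either, and the control had 1 library. Such values were not all particular to LH. In the authors' deposited table, COL4A6-208 also had -7.58 with FSH and with FSK. COL6A3-201 had -11.35 with FSK there, where the summed gene had a log2 ratio of -1.01. Other COL6A3 transcripts had smaller LH values in the authors' deposited table, -0.24 for COL6A3-212, -0.64 for COL6A3-206 and -3.41 for COL6A3-209. In all, 8 collagen transcripts were called higher and 8 lower with LH, where 2.74% of all transcripts were called. The higher ones include COL6A3-205 at 8.895, COL6A3-207 at 7.15 and COL4A6-202 at 8.32 in the authors' deposited table, each with under 1 scaled count in the control.

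Among transcripts with at least 1000 scaled counts in the control, 24 of 27 collagen transcripts (88.9%) had a negative LH fold change in the authors' deposited table, with a median of -0.96. Of all 8945 such transcripts, 69.9% had one, with a median of -0.23. The LH library behind these values was not analysed here.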

How the results depend on the processing

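Each library stood alone, so neither a left-out library nor replicate error could be given, and depth limits the genes under 100 scaled counts. No paired analysis was possible because each group had 1 library. Over 1398 recomputed gene ratios, 145 moved past their counting interval and 54 changed sign, 33 of them with the authors' normalized table. None of those 54 was past 2-fold as reported, and the largest reported log2 ratio among them was 0.56 (COL9A3 with FSK). Further, 11 calls at 2-fold were lost and 5 were gained. COL4A4 with FSK fell under 2-fold in 5 settings (log2 0.84 to 1.00), and COL14A1 with PMA in 2 (-0.96 and -0.99). Only the authors' normalized table moved the median of all genes by over 0.1, by -0.15 with FSH, -0.17 with FSK, -0.27 with SC79 and -0.24 with PMA. Neither pseudocounts nor minimums alter the sums. Counts not named below stayed within 1.5 times of those reported, such as 5 to 7 higher for PMA against FSK. The last 3 settings below, and all values for the pathway list and between treatments, were chosen after seeing the data.

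Log2 sums and medians over the control are given in the order FSH, FSK, SC79, PMA. With DESeq2 size factors the sum was -0.22 with FSK and -0.056 with SC79. With total counts the sums were -0.041, -0.23, -0.025 and -0.96, the last no longer 2-fold, and the medians were 0.037 with FSH, 0.097 with FSK and 0.027 with PMA. With the authors' normalized table the sums were -0.21, -0.39, -0.32 and -1.26 and the medians -0.13, -0.055, -0.35 and -0.27. There, 2 collagen genes were lower with SC79, 1 was higher with SC79 than with FSH, and of the pathway list 8 were lower with FSK, 12 lower with PMA and 1 higher with SC79.

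With a pseudocount of 5, 0 collagen genes were lower with FSH, 1 was higher with SC79 and 1 higher with SC79 than with FSH, 0 pathway genes were higher with SC79, and the FSK median was 0.10. With a minimum of 100, 0 were lower with FSH, 1 was higher and 0 lower with SC79, 0 were higher and 0 lower with SC79 than with FSH, 3 pathway genes were lower with FSK, and the medians were 0.011 with FSH and 0.069 with FSK. With a minimum of 5, 2 were lower with SC79, against the control and against FSH, and the FSH median was 0.038. With no minimum, 1 was higher and 2 lower with FSH, 2 lower with SC79, 4 higher and 2 lower with SC79 than with FSH, and the medians were 0.038 with FSH and 0.069 with FSK.

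With protein-coding transcripts only, 1 collagen gene was higher and 0 lower with FSH, 2 were higher with FSK than with FSH, 1 pathway gene was lower with FSH, the sums were -0.044, -0.22, -0.036 and -1.01, and the medians were 0.050 with FSH and 0.094 with FSK. With collagen genes left out of the scaling, the sums were -0.23 with FSK and -1.03 with PMA and the FSK median was 0.10. Where the higher library had to hold 100 scaled counts, 0 were lower with FSH, 0 higher and 0 lower with SC79, 3 lower with FSK than with FSH, and 0 either way with SC79 against FSH. Of the pathway list, 1 was then higher with FSH, 5 higher and 3 lower with FSK, and 0 higher with SC79. Without COL1A1 the sums were 0.0035, 0.079, -0.096 and -0.67, so those of FSH and FSK changed sign. The cause of these shifts was not tested.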
